A study of Mus musculus with 12 samples.

Results

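Ferritin stores cellular iron, and a small set of proteins decides how much of it is made, loaded and broken down. The 8 genes described here were chosen by name for those roles and not by a rule on their values, but with earlier results of these data known. The set holds the ferritin subunits Fth1 and Ftl1, the ferritin receptor Ncoa4, and the iron regulatory proteins Aco1 and Ireb2. It also holds the ligase subunit Fbxl5 and the iron chaperones Pcbp1 and Pcbp2. These genes are 8 of the 22053 listed, all 8 had a value in each of the 12 mice, and all 8 passed the filter on low values. RNA of whole kidneys was sequenced from 3 groups of 4 wild-type C57BL/6 mice. Control mice ate a diet without adenine and received weekly i.p. injections of PBS. CKD mice ate the same diet with 0.2% adenine, which injures the tubules and leads to chronic kidney disease with fibrosis, from 8 to 16 weeks of age, and also received PBS. CKD+Fe mice ate the adenine diet over the same weeks and received 0.5 g/kg iron dextran i.p. each week, a complex of ferric iron and a sugar polymer that macrophages take up. Whether iron given in this way alters the kidney in CKD was the question of the experiment, and the adenine diet alone separates CKD from control mice.

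Ferritin is a hollow shell of heavy (Fth1) and light (Ftl1) subunits. The heavy chain oxidizes ferrous iron so that it can be laid down as a mineral, and the light chain aids the growth of that mineral core. Pcbp1 and Pcbp2 carry iron to ferritin, and Ncoa4 binds the heavy chain and takes ferritin to the lysosome, where its iron is released. Cells set this balance largely at the level of RNA: when iron is scarce, the iron regulatory proteins IRP1 (encoded by Aco1) and IRP2 (encoded by Ireb2) bind a hairpin called the iron-responsive element. Bound near the start of a transcript they block its translation, and bound after the coding part they protect it from decay. When iron is plentiful, IRP1 takes up an iron-sulfur cluster and acts as cytosolic aconitase, whereas IRP2 is degraded through Fbxl5. Transcript levels therefore do not show how much ferritin or IRP protein a kidney held, and protein was not analysed here.

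The hairpins are shown because they divide these genes into those the iron regulatory proteins can bind and those that make up the machinery. Transcripts of the GENCODE M21 annotation (GRCm38) were searched on the transcribed strand for a C, 5 bases, the loop CAGTGN and 5 bases able to pair with the first 5. Among the 8 genes, only the ferritin subunits had a match in an untranslated region. The 5′ UTR of Fth1 holds it at chr19:9982732-9982761 on the plus strand, with 120 bases between the loop and the start codon. That of Ftl1 holds it at chr7:45459778-45459807 on the minus strand, with 158 bases between the loop and the start codon. The exporter ferroportin (Slc40a1) holds one in its 5′ UTR at chr1:45925464-45925493 on the minus strand, and the transferrin receptor (Tfrc) holds 4 in its 3′ UTR, of which the first lies at chr16:32631219-32631248 and the last at chr16:32631710-32631739 on the plus strand. Each is printed 5′ to 3′ as 30 bases, with the 6-base loop in capitals.
Fth1: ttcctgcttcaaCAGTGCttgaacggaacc
Ftl1: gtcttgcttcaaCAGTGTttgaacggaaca
Slc40a1: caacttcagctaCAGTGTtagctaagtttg
Tfrc, first: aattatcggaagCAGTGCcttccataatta
Tfrc, last: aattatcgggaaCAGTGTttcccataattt

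The same pattern occurred in the 5′ UTR of 30 of 21842 protein-coding genes (0.137%) and in the 3′ UTR of 127 of them (0.581%). A match describes letters in an annotated transcript and does not show that a protein was bound there. No match says only that this pattern was not found in the annotated untranslated regions of Ncoa4, Aco1, Ireb2, Fbxl5, Pcbp1 and Pcbp2.

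Levels are given as FPKM, which divides the fragments of a gene by the length of its transcript and by the size of the library, so that levels can be compared between genes. Summed over the listed genes, FPKM came to 503438 to 707843 in a mouse; the number of reads behind them is unknown. In each group 1 mouse stood apart: control mouse 042301, CKD mouse 110310 and CKD+Fe mouse 042702 had 595, 805 and 442 genes at least 2-fold from the rest of their group, against 41 to 225 in the other mice. Several, but not all, of the results that change without these 3 mice are given both ways. The kidney label was checked against 10 proximal tubule markers, all of which were detected in every group. The level of the median gene was 0.50 higher on the log2 scale in CKD than in control mice, and this shift vanished when the FPKM of each mouse were rescaled by median of ratios (-0.03) or quantile normalized (-0.03). Differences below are those of the deposited FPKM. The median gene was also 0.50 higher in CKD+Fe than in control mice. In either comparison with control, a gene whose difference was below 0.50 therefore lost ground to the median gene. In CKD+Fe against CKD the median gene differed by -0.0005.

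Ferritin transcripts were among the most abundant in the kidney, and the genes that control ferritin were far lower. In control mice Fth1 was the gene with the 4th highest mean FPKM of all 22053 and Ftl1 the 8th. Ordered by their mean FPKM in control mice the genes were Fth1 (6842), Ftl1 (3063), Pcbp1 (147), Pcbp2 (142), Aco1 (106), Fbxl5 (28.3), Ireb2 (15.1) and Ncoa4 (10.3). Of neighbours in this order, Pcbp1 and Pcbp2 overlapped between mice, with Pcbp1 the higher in 2 of 4, and Ireb2 and Ncoa4 overlapped in range although Ireb2 was the higher in all 4 mice. In CKD mice Fth1 and Ftl1 overlapped in range as well, although Fth1 was the higher in all 4. With iron the order of the means was reversed: Ftl1 had a mean of 3916 FPKM and Fth1 of 3765 FPKM, with Ftl1 the higher in 2 of 4 mice. Mouse 042702, which stands apart, was among these, with Ftl1 at 5588 FPKM and Fth1 at 4367 FPKM. Over the other mice of the group the mean of Fth1 was the higher, so the reversal rests on this mouse. Ftl1 ranked 11th of all genes in CKD and 4th in CKD+Fe mice.

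**Figure D1:**
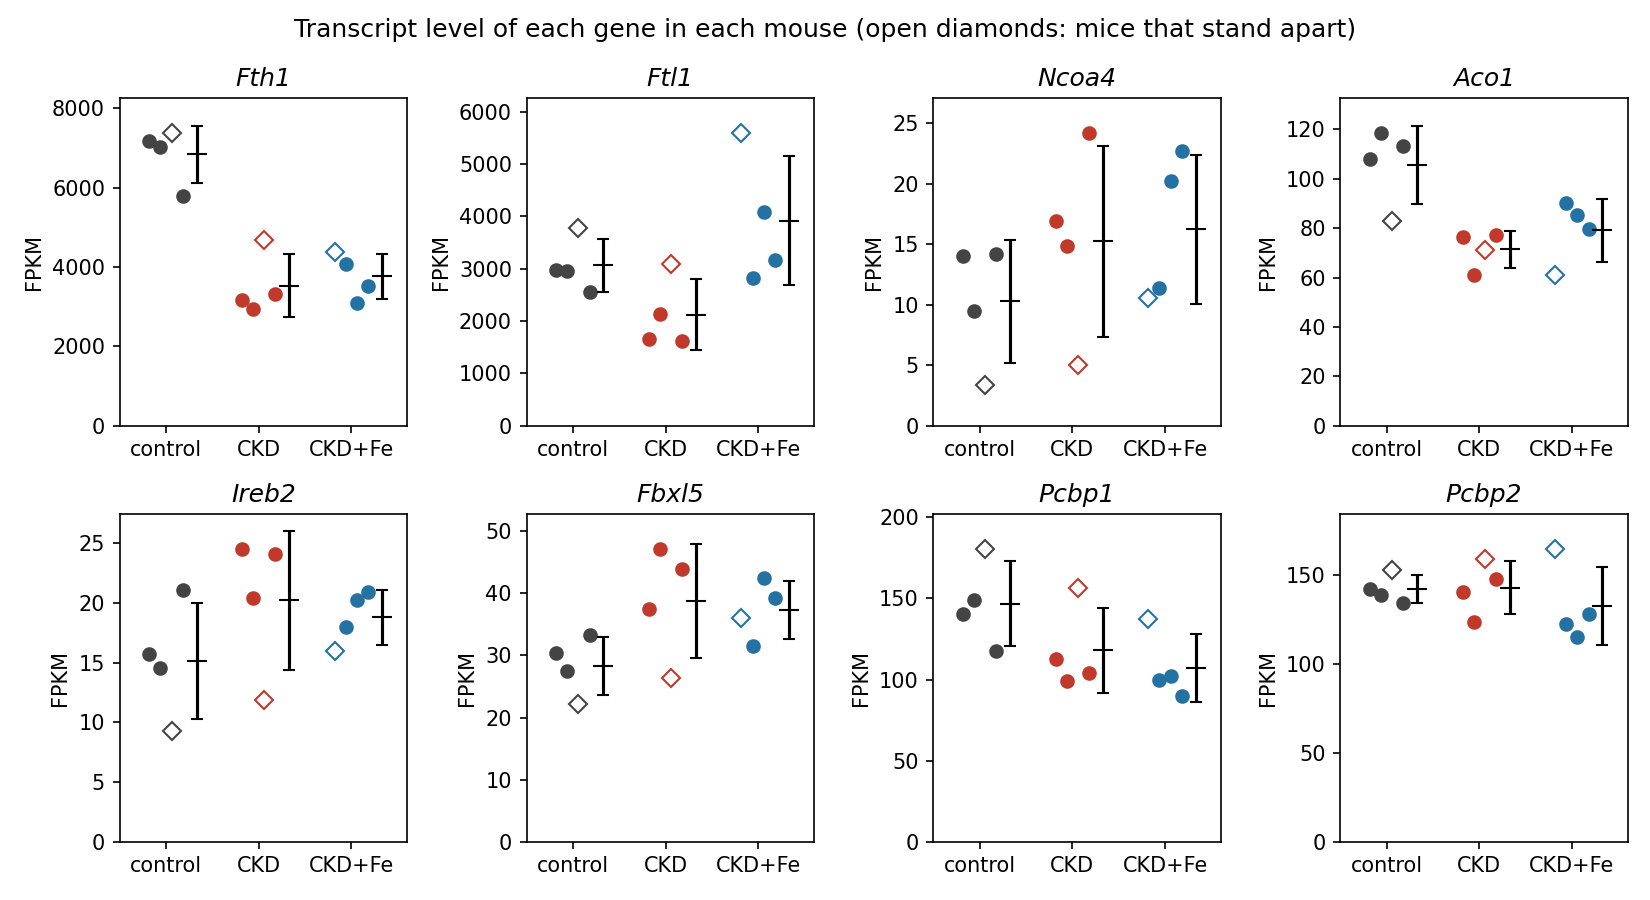
FPKM of the 8 genes (y axis, from 0) in each mouse of the control, CKD and CKD+Fe groups (x axis). Points are mice, open diamonds are the 3 mice that stand apart, and bars are the mean ± SD of 4 mice. Fth1 lies between 5787 and 7372 FPKM in control mice and between 2951 and 4688 FPKM in CKD mice; Ftl1 reaches 5588 FPKM in a CKD+Fe mouse.

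The genes of this set that passed the test in CKD were an abundant subunit and a regulator of its translation, and both were lower. All 12 mice were fitted together with limma on log2(FPKM + 1), with Benjamini-Hochberg adjustment over 13148 genes and a threshold of 0.05. Against control mice, Fth1 and Aco1 were lower in CKD, 2 of 8 genes, and none was higher. Among all genes tested 13.3% were lower and 54.6% were higher. The groups did not overlap for Fth1 and Aco1, where 55% of all genes tested did not overlap in either direction. The median log2 difference of the 8 genes was -0.16, beside 0.50 for all genes tested. Without the mouse that stands apart in each group, 6 of the 8 genes passed: Fth1, Ftl1, Aco1 and Pcbp1 were lower, and Ireb2 and Fbxl5 were higher. Most genes passed in that fit: of 12951 tested, 7705 were higher and 2027 were lower.

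Fth1, at chr19:9982703-9985092 on the plus strand, was the member with the largest difference. Its levels were 7183, 7027, 7372 and 5787 FPKM in the 4 control mice and 3171, 2951, 4688 and 3311 FPKM in the 4 CKD mice. Every CKD mouse was below every control mouse, and the CKD mean of 3530 ± 786 FPKM (SD, n = 4) was 51.6% of the control mean of 6842 ± 717 FPKM. The log2 difference was -0.97 with a standard error of 0.21 (limma, adjusted p = 0.00124; exact permutation test, two-sided p = 0.0286, the smallest that 4 against 4 allows). Median-of-ratios rescaling gave -1.59 (adjusted p = 6.11e-05). Quantile normalization, which sets the value of a gene by its rank, gave -0.11 (adjusted p = 0.668); Fth1 ranked 4th in both groups. Without a filter on low values the difference was unchanged at -0.97 but its standard error rose to 0.81 (adjusted p = 0.406).

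Ftl1, at chr7:45457944-45459884 on the minus strand, was lower in 3 of 4 CKD mice but did not pass the test. Control mice held 2967, 2961, 3770 and 2554 FPKM, and CKD mice held 1646, 2135, 3086 and 1626 FPKM. The CKD mouse with the high value was mouse 110310, which stands apart. The log2 difference was -0.57 with a standard error of 0.26 (limma, adjusted p = 0.0725). Without the 3 mice that stand apart it was -0.66 and passed (limma, adjusted p = 0.00892). It was -1.19 and passed after median-of-ratios rescaling (limma, adjusted p = 0.00184), and -0.19 with quantile normalization, which did not pass (adjusted p = 0.492).

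Whole kidney was measured, so fewer cells of a type and less RNA per cell cannot be told apart in any of these differences. Marker genes of several cell types moved in the comparison of CKD with control, in which 54.6% of all genes tested were higher and 13.3% were lower. Of 10 proximal tubule markers 9 were lower, the exception being Slc5a12, and their summed FPKM was 3034 to 4350 in control mice and 618 to 1086 in CKD mice. All 10 macrophage markers were higher, with sums of 125 to 259 FPKM in control mice and 1816 to 3815 FPKM in CKD mice, and all 6 fibroblast markers were higher, with sums of 63.2 to 87.7 and 356 to 740 FPKM. In the rest of the nephron 1 of 7 markers was higher (Atp6v1b1, log2 difference 0.50, and -0.11 after rescaling) and 1 was lower (Aqp2, -1.24). Of the erythroid markers 1 of 5 tested was lower (Slc4a1, -1.21), and of the papilla and urothelium markers 1 of 7 was higher (Krt20, 4.60). No marker in these lists was at 0 in all mice of a group. The part of these shifts in the lower Fth1 level was not tested.

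Ftl1 was the gene of this set with the largest difference between CKD+Fe and CKD mice, but it did not pass adjustment, and Fth1 differed little. The levels of Ftl1 in CKD+Fe mice were 5588, 2816, 4088 and 3172 FPKM, and their mean was 3916 ± 1237 FPKM (SD, n = 4) against 2123 ± 684 FPKM in CKD mice. All 4 were above the CKD median, but 2816 FPKM lay below the 3086 FPKM of CKD mouse 110310, so the groups overlapped. The log2 difference was 0.88 with a standard error of 0.26 and a 95% interval of 0.31 to 1.45. It had an unadjusted p of 0.0051 and did not pass adjustment over all genes (limma, adjusted p = 0.479; exact permutation test, two-sided p = 0.0571). Of all genes tested 6.01% had an unadjusted p under the threshold, and 0.00761% passed adjustment. In this comparison 2.43% of all genes tested did not overlap, and none of the 8 genes was among them.

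The size of the Ftl1 difference with iron was much the same under each scaling. It was 0.89 after median-of-ratios rescaling and 0.88 after quantile normalization, and neither passed. It was 0.89 without the 3 mice that stand apart (limma, adjusted p = 0.0633), and 1.005 with array quality weights, which give less weight to libraries far from their group (limma, adjusted p = 0.0326). That weighted fit called 79 of all 13148 genes tested higher and 56 lower. The weights of those 3 mice were 0.308, 0.206 and 0.395, and those of the other 9 mice were between 0.812 and 3.19. Leaving out 1 mouse at a time gave 0.69 to 1.08, and no such fit passed. In the same comparison none of the markers of macrophages, proximal tubule, other nephron segments, fibroblasts, erythroid cells or papilla passed (limma), where 0.00761% of all genes did. Log2 differences of the proximal tubule markers ran from 0.04 to 1.36 (median 0.48). Those of fibroblast markers ran from -1.03 to 0.16 (median -0.39), and of macrophage markers from -0.61 to 0.55 (median -0.07). Medians of the other nephron, erythroid and papilla lists were 0.24, -0.94 and 0.45. In CKD+Fe mice the macrophage markers summed to 1695 to 3794 FPKM and the proximal tubule markers to 779 to 1505 FPKM, ranges that overlap those of CKD mice. The part of cell content in the Ftl1 difference was not tested.

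Fth1 was at 4367, 4086, 3090 and 3515 FPKM in the CKD+Fe mice. These values overlapped those of CKD mice, and the log2 difference was 0.10 with a 95% interval of -0.35 to 0.56 (limma, adjusted p = 0.993). All 4 stayed below the lowest control mouse, and against control mice Fth1 was lower by a log2 difference of -0.87 with a standard error of 0.21 (limma, adjusted p = 0.00291). This was -1.48 after median-of-ratios rescaling, and the call was lost with quantile normalization (-0.18, adjusted p = 0.483, limma) and without a filter on low values (adjusted p = 0.474). Ftl1 in CKD+Fe mice was 0.32 above control on the log2 scale, with a 95% interval of -0.25 to 0.89, and 0.29 below control (-0.29) after median-of-ratios rescaling. With quantile normalization it was 0.69 above control and passed (limma, adjusted p = 0.0199). CKD+Fe and CKD mice were compared with the same control mice, and the 2 comparisons that involve CKD share the CKD mice.

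The balance of the subunits was read within each mouse as the ratio of Fth1 to Ftl1 FPKM, which no size factor applied to a mouse can alter. It was 2.42, 2.37, 1.96 and 2.27 in control mice, 1.93, 1.38, 1.52 and 2.04 in CKD mice, and 0.782, 1.45, 0.756 and 1.11 in CKD+Fe mice. The heavy chain led in all 8 mice without iron. In 2 of 4 mice with iron the light chain led: mouse 111710 and mouse 042702, the latter of which stands apart. All CKD+Fe mice were below all control mice, with means of 1.02 ± 0.327 and 2.25 ± 0.209 (SD, n = 4). The log2 ratio differed by -1.19 with a standard error of 0.23 (exact permutation test, two-sided p = 0.0286, adjusted over 15 ratio tests 0.107). CKD against control and CKD+Fe against CKD overlapped, with differences of -0.41 and -0.78 (exact permutation p = 0.0571 for each).

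**Figure D2:**
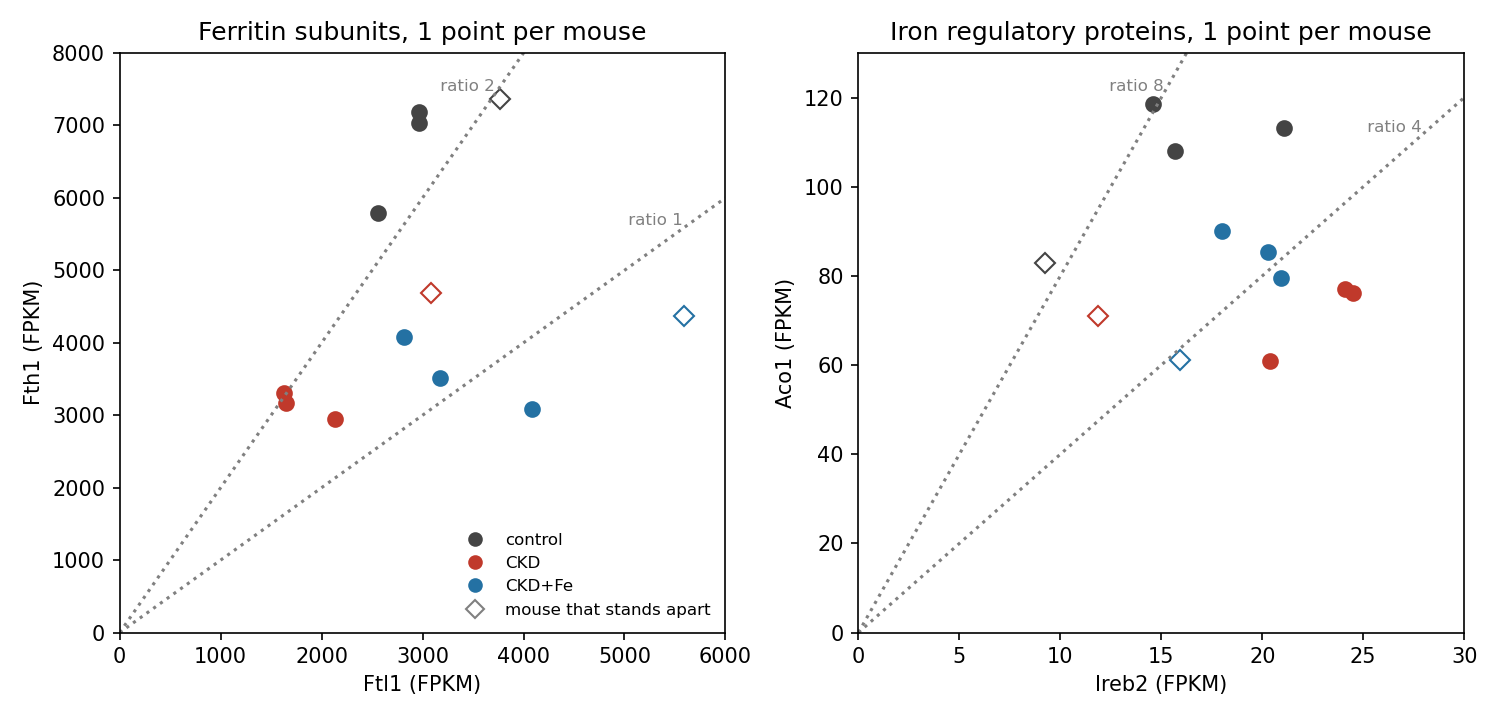
Left, Fth1 against Ftl1; right, Aco1 against Ireb2, in FPKM on both axes with 1 point per mouse; dotted lines mark equal ratios and open diamonds the mice that stand apart. Control mice lie near or above the line of ratio 2 for ferritin and CKD+Fe mice between 0.756 and 1.45; for the iron regulatory proteins, CKD mouse 110310 lies at 5.99 and the other 3 CKD mice between 2.99 and 3.20.

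Together the 2 subunits made up 1.52 ± 0.0984% of all listed FPKM in control mice, 1.04 ± 0.169% with CKD alone and 1.39 ± 0.272% with iron (SD, n = 4). The CKD share was lower than control in all 4 mice, by 0.482 percentage points (exact permutation test, two-sided p = 0.0286). CKD+Fe mice were between 1.21% and 1.79% and CKD mice between 0.933% and 1.29%, which overlapped (difference 0.35 percentage points, exact permutation p = 0.0857). Without CKD mouse 110310 they did not overlap, and the difference was 0.434 percentage points (exact permutation p = 0.0286). With the 50 most abundant other genes left out of the sum, the gap between CKD and control was 0.876 percentage points (a difference of -0.876). A smaller sum raises every share, so this gap cannot be set beside that of 0.482. As summed FPKM, the 2 subunits were at 9906 ± 1161 in control mice, at 5653 ± 1418 in the CKD group and at 7681 ± 1530 with iron. Ferritin has many processed gene copies, and reads of near-identical copies may be split or lost in counting. The copy Ftl1-ps1 was listed at 0.168% to 0.172% of the mean Ftl1 level in the 3 groups. The deposited list is labelled as protein-coding, so copies outside it were not seen. This level therefore does not show how many reads were split or lost.

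Ncoa4, at chr14:32159865-32179855 on the plus strand, was the least abundant and most variable of the 8 genes. Control mice held 14.0, 9.49, 3.40 and 14.2 FPKM, CKD mice 16.9, 14.9, 5.05 and 24.2 FPKM, and CKD+Fe mice 10.6, 11.4, 20.3 and 22.7 FPKM. The lowest mouse in each group was the one that stands apart. Its coefficient of variation was 49.5% in control and 51.7% in CKD mice, against 5.54% and 10.4% for Pcbp2. The log2 difference between CKD and control mice was 0.51 with a 95% interval of -0.46 to 1.48 (limma, adjusted p = 0.33), close to the shift of the median gene, and -0.06 after rescaling. Relative to its cargo, the mean ratio of Ncoa4 to Fth1 was 0.00155 in control mice, 0.00469 with CKD alone and 0.00456 with iron, and the log2 ratio in CKD exceeded control by 1.54 (exact permutation p = 0.114).

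Among 10 other genes of ferritin degradation that were tested, which hold autophagy factors and the ligase that targets Ncoa4, 1 was higher and 3 were lower in CKD. Beside them, 54.6% of all genes tested were higher and 13.3% were lower. Herc2, the ligase that marks Ncoa4 for degradation when iron is high, was at 4.0 ± 0.285 FPKM in control and 7.17 ± 1.27 FPKM in CKD mice (log2 difference 0.70). Gabarapl1, a member of the ATG8 family of autophagosome proteins, was at 585 ± 90.2 and 351 ± 73.9 FPKM (log2 difference -0.75), and Map1lc3a and Gabarapl2 of the same family differed by -0.69 and -0.31. After median-of-ratios rescaling none of the 10 was higher and 8 were lower, where 3571 of all 13148 genes tested were higher and 4075 were lower. None passed in CKD+Fe against CKD.

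Aco1, at chr4:40143081-40198338 on the plus strand, was the more abundant of the IRP transcripts, and it was lower in CKD. Its levels were 108, 118, 82.9 and 113 FPKM in control mice and 76.3, 61.0, 71.1 and 77.0 FPKM in CKD mice. Every CKD mouse was below every control mouse, and the CKD mean was 67.5% of control. The log2 difference was -0.55 with a standard error of 0.15 (limma, adjusted p = 0.00586; exact permutation p = 0.0286). It was -1.17 after median-of-ratios rescaling and -0.42 with quantile normalization, which did not pass (limma, adjusted p = 0.061).

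In CKD+Fe mice Aco1 was at 61.1, 90.2, 85.3 and 79.6 FPKM. These values overlapped those of CKD mice (log2 difference 0.14, 95% interval -0.19 to 0.47). Against control mice Aco1 was lower by a log2 difference of -0.42 (limma, adjusted p = 0.0281), but the groups overlapped, since control mouse 042301 was at 82.9 FPKM, and the call was lost in 6 of 22 alternative fits, 5 of which left out 1 mouse.

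Ireb2, at chr9:54863755-54912534 on the plus strand, had a higher mean in CKD than in control mice and did not pass. Control mice held 15.7, 14.6, 9.24 and 21.1 FPKM, CKD mice 24.5, 20.4, 11.9 and 24.1 FPKM, and CKD+Fe mice 15.9, 18.01, 20.3 and 20.9 FPKM. The groups overlapped, and the lowest mouse of each group was the one that stands apart. In CKD against control the log2 difference was 0.40 with a 95% interval of -0.13 to 0.92 (limma, adjusted p = 0.161), and it was -0.19 after rescaling. Without the 3 mice that stand apart it was 0.42 and passed (limma, adjusted p = 0.0207), but with rescaling as well it was -0.22 and did not pass.

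The balance of the IRP transcripts within a mouse was read as a ratio of deposited FPKM, which no size factor applied to that mouse can alter. Quantile normalization can alter it. In CKD against control it gave -0.42 for Aco1 and -0.02 for Ireb2, where the deposited FPKM gave -0.55 and 0.40. Aco1 exceeded Ireb2 by 6.88, 8.12, 8.97 and 5.38 times in control mice, by 3.12, 2.99, 5.99 and 3.20 times in CKD mice, and by 3.83, 5.01, 4.21 and 3.80 times in CKD+Fe mice. All CKD+Fe mice were below all control mice, with a log2 difference of -0.78 (exact permutation p = 0.0286, adjusted over 15 ratio tests 0.107). CKD mice were lower than control by -0.98 on the log2 scale, with 1 CKD mouse, 110310, inside the control range (exact permutation p = 0.0571).

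Fbxl5, at chr5:43744615-43821638 on the minus strand, binds iron in its own hemerythrin-like domain and recruits IRP2 to a ubiquitin ligase. Its levels were 30.3, 27.5, 22.2 and 33.2 FPKM in control mice, 37.5, 47.1, 26.4 and 44.0 FPKM in CKD mice, and 36.0, 31.5, 42.5 and 39.3 FPKM in CKD+Fe mice. In CKD 3 of 4 mice were above all control mice, and mouse 110310 was not. The log2 difference was 0.42 with a standard error of 0.18 (limma, adjusted p = 0.0535), it was -0.18 after rescaling, and without the 3 mice that stand apart it was 0.48 (limma, adjusted p = 0.00801).

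Fbxl5 was compared with its target Ireb2 within each mouse. Their ratio averaged 1.95 ± 0.338 in control mice, 1.97 ± 0.361 with CKD alone and 2.0 ± 0.226 with iron (SD, n = 4), and the smallest exact permutation p of its 3 comparisons was 0.771. Of the 3 partner subunits in its ligase complex, Skp1a, the adaptor that holds the F-box, was lower in CKD at 181 ± 11.8 FPKM against 294 ± 8.28 FPKM in control mice (log2 difference -0.70), and the scaffold Cul1 was higher (log2 difference 0.33). Over all genes tested, 54.6% were higher and 13.3% were lower in CKD. After rescaling none was higher and 2 were lower, beside 3571 higher and 4075 lower of all 13148 genes tested.

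Pcbp1 and Pcbp2 bind RNA as well as iron, and Pcbp1, at chr6:86524492-86526321 on the minus strand, had lower means in both disease groups. Control mice held 140, 149, 180 and 117 FPKM, CKD mice 113, 98.9, 156 and 104 FPKM, and CKD+Fe mice 138, 99.7, 102 and 89.6 FPKM. The highest mouse of each group was the one that stands apart, and all groups overlapped. Against control, Pcbp1 did not pass in CKD (log2 difference -0.32, adjusted p = 0.133, limma) and passed in CKD+Fe mice (-0.45, adjusted p = 0.0425, limma). Both differences passed without the 3 mice that stand apart (-0.36 and -0.47) and after median-of-ratios rescaling (-0.94 and -1.06; limma, adjusted p = 0.000813 and 0.000389). With quantile normalization neither passed (-0.053 and -0.24; limma, adjusted p = 0.798 and 0.216), and the call in CKD+Fe mice was lost in 9 of 22 alternative fits, 7 of which left out 1 mouse.

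Pcbp2, at chr15:102470632-102500059 on the plus strand, was the gene whose 3 group means lay closest together in the deposited FPKM. It was at 142, 139, 153 and 134 FPKM in control mice, 141, 124, 159 and 148 FPKM in CKD mice, and 164, 122, 115 and 128 FPKM in CKD+Fe mice. The log2 difference between CKD and control mice was 0.004, with a 95% interval of -0.28 to 0.29, and rescaling turned it to -0.61 and past the threshold (limma, adjusted p = 0.00181), whereas quantile normalization gave 0.30 (adjusted p = 0.073). The ratio of Pcbp1 to Pcbp2 averaged 1.03 in control mice, 0.822 with CKD alone and 0.81 with iron (exact permutation p = 0.0571 for either disease group against control). None of 4 tested partners and paralogs of these chaperones passed in CKD, where 54.6% of all genes tested were higher and 13.3% were lower. In CKD+Fe against control Pcbp4, a paralog, was the 1 that passed, with a log2 difference of 0.51 that rescaling turned to -0.08. There 54.4% of all genes tested were higher and 11% were lower.

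In CKD+Fe against control, 3 of the 8 genes passed, Fth1, Aco1 and Pcbp1, and all 3 were lower. Of all genes tested 11% were lower and 54.4% were higher. The groups did not overlap for Fth1 alone of the 8 genes, where 60.2% of all genes did not overlap. In CKD+Fe against CKD none of the 8 passed in limma, and 1 of them (Ftl1) had an unadjusted p under the threshold. With array quality weights the count was 1, where 79 of all genes tested were higher and 56 were lower.

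**Figure D3:**
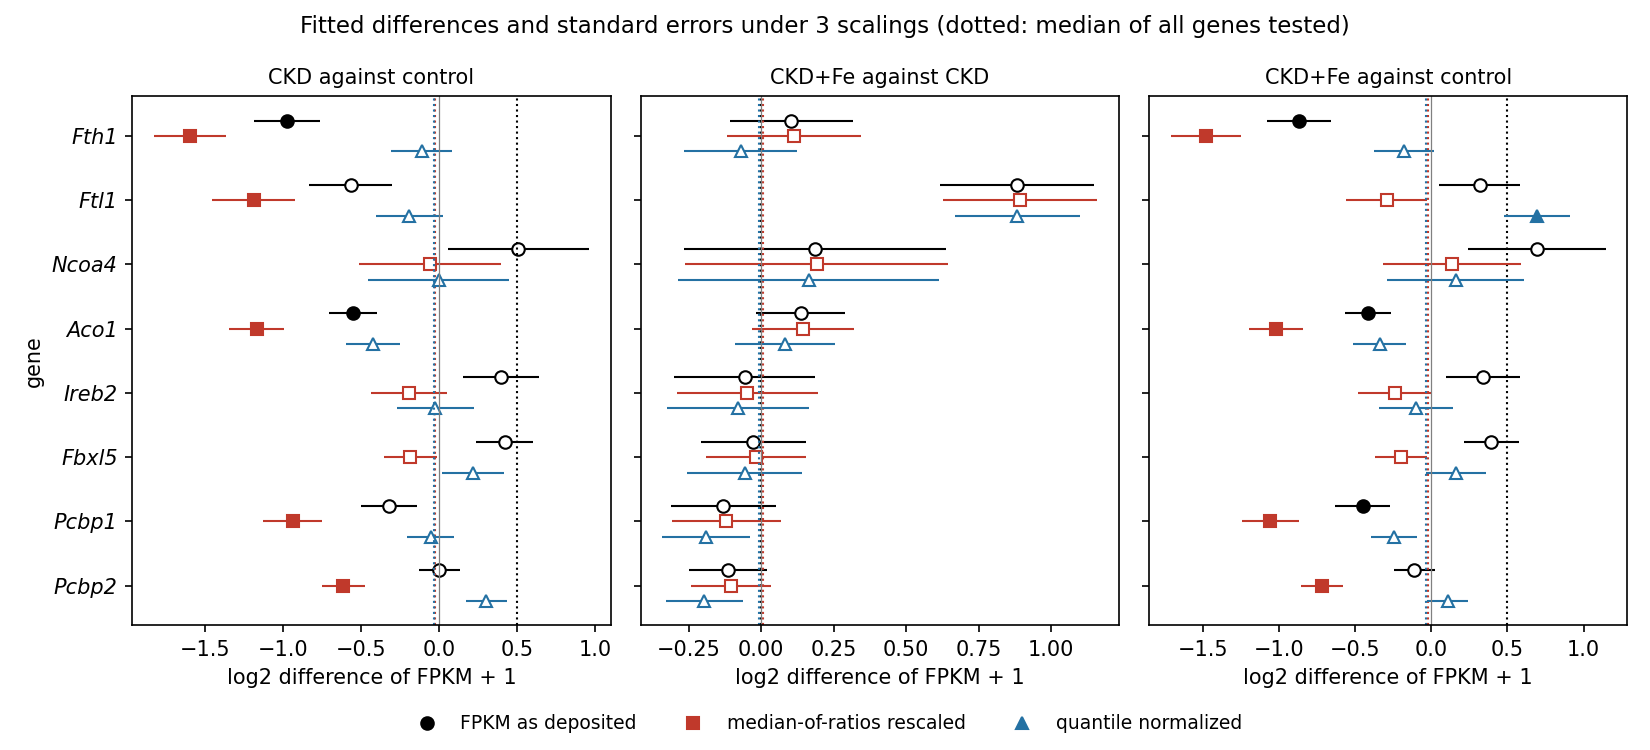
Log2 differences of FPKM + 1 (x axis) with standard errors for the 8 genes (y axis) in the 3 comparisons. Black circles are the deposited FPKM, red squares median-of-ratios rescaled and blue triangles quantile normalized values, filled where the adjusted p is under 0.05; dotted lines are the medians of all genes tested, which lie at 0.50 for the deposited FPKM in both comparisons with control. Fth1 lies at -0.97, -1.59 and -0.11 in CKD against control, and Ftl1 at 0.88, 0.89 and 0.88 in CKD+Fe against CKD.

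Other transcripts known to carry an iron-responsive element were compared in the same way. Ferroportin (Slc40a1), the only known exporter of cellular iron, was at 13.5 ± 5.63 FPKM in control mice, at 36.9 ± 7.96 FPKM with CKD alone and at 54.1 ± 13.7 FPKM with iron. It was higher in CKD than in control by 1.44 on the log2 scale (limma, adjusted p = 0.000346), and rescaling left it higher at 0.85. The hypoxia factor Epas1 was also higher in CKD (log2 difference 0.43; limma, adjusted p = 0.0155), and its difference was -0.17 after rescaling. The erythroid gene Alas2 was under the filter, and the search above found no match in Epas1.

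Of 4 genes listed as carrying an element in the 3′ UTR from background knowledge, of which the search above found a match in Tfrc alone, 2 were higher and none lower in CKD: Cdc14a by 0.87 and Cdc42bpa by 0.68. The share of all genes tested was 54.6% higher and 13.3% lower. After rescaling none was higher and 2, Tfrc and Slc11a2, were lower, beside 3571 higher and 4075 lower of all 13148 genes tested. Tfrc, the receptor through which cells take up transferrin-bound iron, ranged from 26.9 to 30.2 FPKM in control mice, from 14.2 to 37.3 FPKM with CKD alone and from 14.7 to 23.9 FPKM with iron. In CKD it did not pass (log2 difference -0.42, adjusted p = 0.123, limma), and in CKD+Fe mice all 4 values were below all control values (-0.61, adjusted p = 0.0331, limma). Slc11a2, the ferrous iron transporter DMT1, was at 26.7 ± 5.71 FPKM in control and 28.8 ± 4.89 FPKM in CKD mice (log2 difference 0.11). None of these genes passed in CKD+Fe against CKD, where Slc40a1 differed by 0.53 (limma, adjusted p = 0.859) and Tfrc by -0.19.

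IRP1 depends on the cytosolic machinery that builds iron-sulfur clusters, and 2 of its 9 genes were higher and 3 were lower in CKD. By comparison, 54.6% of all genes tested were higher and 13.3% were lower. Ndor1, a reductase that feeds electrons to the pathway, was at 6.06 ± 0.526 FPKM in control and 14.8 ± 4.14 FPKM in CKD mice (log2 difference 1.116), and the targeting factor Mms19 was at 10.5 ± 1.71 and 21.5 ± 5.48 FPKM (0.95). Ciao1, a partner of Mms19 in the targeting complex, differed by -0.47, and Fam96a and Narfl by -0.37 and -0.33. After rescaling 1 of the 9 was higher and 7 were lower, beside 3571 higher and 4075 lower of all 13148 genes tested.

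The 3 mice that stand apart tended to hold higher levels of the shorter of these transcripts and lower levels of the longer ones than the rest of their groups. Fth1, Ftl1, Pcbp1 and Pcbp2, whose longest annotated transcripts have 929, 968, 1830 and 3222 bases, were at the highest level of the group in all 3 of these mice. Ncoa4 and Ireb2, with 4065 and 5770 bases, were at the lowest in all 3. Fbxl5 (4237 bases) was lowest in 2, as was Aco1 (3832 bases), and both lay between the other mice in the third. Over all genes, those with the shortest transcripts (up to 2089 bases) were higher than in the rest of the group by a median of 0.31, 0.28 and 0.12 on the log2 scale in mice 042301, 110310 and 042702, and those with the longest (from 4663 bases) were at -0.10, -0.40 and 0.00. The part of this pattern in the values of the 8 genes was not tested.

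**Figure D4:**
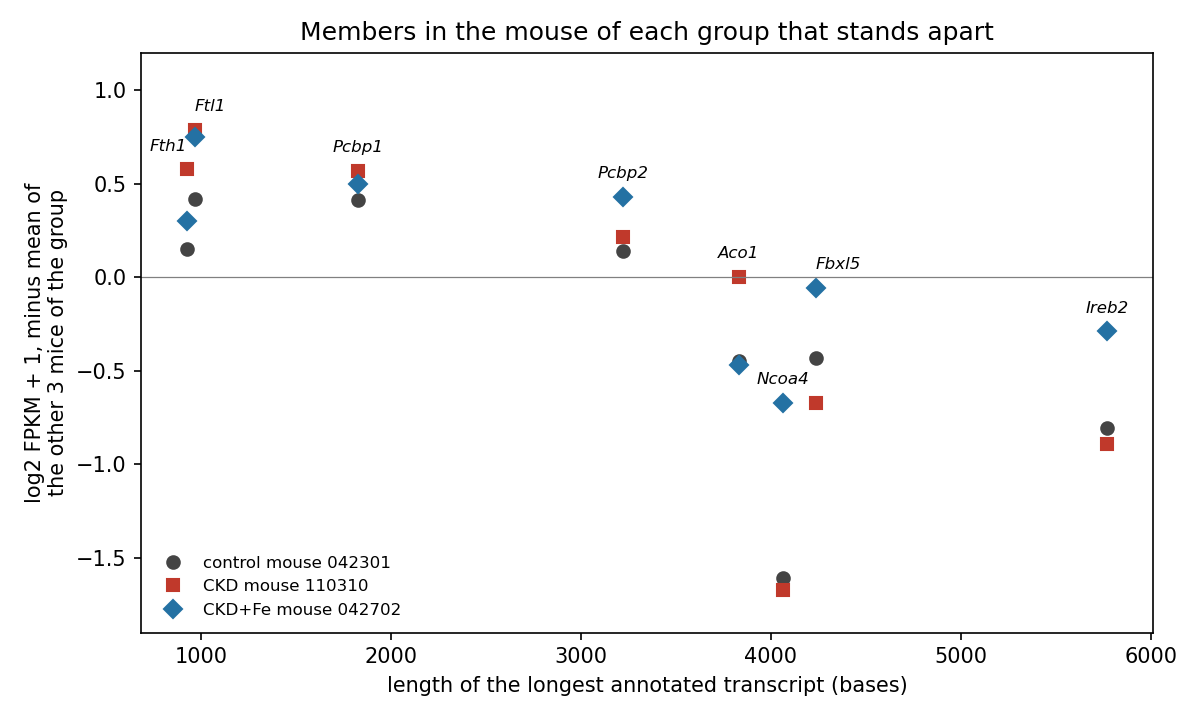
For each of the 3 mice that stand apart, log2(FPKM + 1) of the 8 genes minus the mean of the other 3 mice of the group (y axis) against the length of the longest annotated transcript in bases (x axis). Points above 0 are genes higher in that mouse; Ftl1 lies at 0.79 and Ncoa4 at -1.67 in CKD mouse 110310.

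The genes whose levels followed Fth1, Ftl1 and Aco1 most closely over the 12 mice were found by Pearson's r of log2(FPKM + 1), given as a description without a test, since the 12 mice share 3 group differences. Mpst, Uqcrc1 and Sdr39u1 came closest to Fth1, with r of 0.979, 0.976 and 0.976, and 0.886, 0.887 and 0.855 for deviations from the group means. The group means of Mpst, a mitochondrial and cytosolic sulfurtransferase, were 68.2 FPKM for control, 31.8 FPKM for CKD and 32.8 FPKM for CKD+Fe. Closest to Ftl1 were its copies Ftl1-ps1 and Gm5093, with r of 0.911 and 0.904, followed by Tmem39b with 0.901. Copies may share reads with Ftl1, so their likeness adds nothing on Ftl1. Aco1 was followed by F13b, Slc25a15 and Suclg2, with r of 0.978, 0.977 and 0.971, and 0.954, 0.949 and 0.936 for deviations from the group means.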

How the data were processed

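RNA of 12 whole kidneys, 4 per group, was sequenced by the authors as single-end reads of 50 cycles. Per the labels, reads were converted with bcl2fastq 2.19, aligned to GRCm38 with STAR 2.5.2 and summarised with Cufflinks 2.1.1, and the authors deposited FPKM for 22053 genes. The list is labelled as protein-coding, and the annotation behind it is not given in the sources used here. Read counts were not analysed here, so depth is unknown and intervals from counting could not be given. The 30 values marked as failed were treated as missing; none belongs to the 8 genes. Locus starts were raised by 1 to count from 1.

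The 13148 genes that reached 1 FPKM in 4 mice or more were fitted as log2(FPKM + 1) with limma 3.58.1 (R 4.3.3) in 1 model of 3 groups with a variance trend, with Benjamini-Hochberg adjustment over all genes. A fold on this scale understates that of low genes. Ratios and shares were tested by exact permutation of the 70 arrangements of 4 against 4 mice (two-sided, smallest p 0.0286). The fit was tested on simulated data. The limma p-values set a difference against the spread between these mice, which is estimated with help from all genes fitted. The labels name no batch. Iron-responsive elements came from GENCODE M21 transcripts.

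The 8 genes, the pathway lists and the marker lists were chosen with earlier results of these data known. Text names all 8 genes, always Tfrc, Slc40a1 and Slc11a2, up to 3 genes of another list with the largest difference past the threshold in CKD, and the 3 genes most like Fth1, Ftl1 and Aco1. Members of counts of 5 or fewer outside this rule (Epas1, Cdc14a, Cdc42bpa, Pcbp4, Gabarapl2, Fam96a, Narfl, Slc5a12) were named after their values were seen. A further item of the lists is not reported here. Alternatives were another pseudocount, other filters, 2 rescalings, fits of 2 groups only, no variance trend, array quality weights and leaving out each mouse. Leaving out the 3 mice that stand apart was added after seeing the data.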

Additional observations from a re-analysis of the deposited data

Results flagged for a closer look

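In 42 groups of 4 mice, covering the FPKM of the 8 genes, 5 ratios and the ferritin share, 1 mouse was far from the other 3 in 3 groups by Dixon's test at its 95% critical value, and chance alone would flag about 1 in 20 groups. The ratio of Aco1 to Ireb2 in CKD mouse 110310 was 5.988, while the other 3 CKD mice were at 2.992 to 3.199. Ferritin made up 1.288% of listed FPKM in the same mouse and 0.9332% to 0.9806% in the other CKD mice. In control mouse 042310 ferritin made up 1.372%, and 1.552% to 1.577% in the other control mice. CKD mouse 110310 is among the 3 mice that stand apart; control mouse 042310 is not.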

How the results depend on the processing

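Fth1 was lower and Aco1 was lower in CKD in each of the 22 alternative fits, and Ftl1 was higher in CKD+Fe than in CKD mice in each of 22; which of them passed varied. The count of genes passing in CKD against control (2) was 1 without a filter, 5 with median-of-ratios rescaling, 0 with quantile normalization, 6 with array quality weights, 6 without the 3 mice that stand apart, 5 without them and rescaled, and 2 to 6 when 1 mouse was left out. The count of 6 came without CKD mouse 110310, when Ftl1, Pcbp1, Ireb2 and Fbxl5 passed as well, and leaving out control mouse 042310 gave 3 by adding Fbxl5. In CKD+Fe against CKD the count of 0 became 1 with array quality weights (Ftl1), where 79 of all 13148 genes tested were higher and 56 were lower. In CKD+Fe against control the count of 3 (Fth1, Aco1 and Pcbp1, all lower) became 1 without a filter (Aco1), 1 with quantile normalization (Ftl1, higher), 4 with median-of-ratios rescaling (Pcbp2 lower as well), 4 with only the groups compared (Fbxl5 higher as well), 6 with array quality weights, 5 without the 3 mice and rescaled, and 1 to 4 when 1 mouse was left out. It was 1 (Fth1) without control mouse 012811, control mouse 012822 or CKD+Fe mouse 122320. For all 13148 genes in CKD+Fe against control, array quality weights gave 8251 higher and 1953 lower. Median-of-ratios rescaling gave 3427 and 3851, quantile normalization 2605 and 2967, and only the groups compared 7299 and 1492. Without a filter, 7713 of 22036 were higher and 1413 lower, and without the 3 mice and rescaled, 3820 and 4333 of 12951. The causes of these changes in the counts were not tested.

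Several small differences changed sign. With median-of-ratios rescaling, log2 differences in CKD against control were -0.055 for Ncoa4, -0.19 for Ireb2, -0.18 for Fbxl5 and -0.61 for Pcbp2, and in CKD+Fe against control -0.29 for Ftl1, -0.24 for Ireb2 and -0.20 for Fbxl5. With rescaling and without the 3 mice, they were -0.10 for Ncoa4, -0.22 for Ireb2, -0.17 for Fbxl5 and -0.68 for Pcbp2 in CKD against control, -0.37 for Ftl1, -0.11 for Ncoa4, -0.37 for Ireb2 and -0.29 for Fbxl5 in CKD+Fe against control, and -0.0060 for Ncoa4 in CKD+Fe against CKD. Quantile normalization gave -0.0020 for Ncoa4 and -0.022 for Ireb2 in CKD against control, -0.10 for Ireb2 and 0.11 for Pcbp2 in CKD+Fe against control, and -0.071 for Fth1 in CKD+Fe against CKD. Without the 3 mice Ncoa4 differed by -0.066 in CKD+Fe against CKD and Pcbp2 by -0.015 in CKD against control, where array quality weights gave -0.0011.

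Leaving out 1 mouse gave, in CKD+Fe against CKD, -0.23 to 0.45 for Ncoa4, -0.28 to 0.048 for Ireb2, -0.20 to 0.075 for Fbxl5 and -0.25 to 0.012 for Pcbp1, and -0.050 to 0.071 for Pcbp2 in CKD against control. The log2 ratio of Fth1 to Ftl1 differed by -1.37 to -1.06 in CKD+Fe against control, -0.50 to -0.31 in CKD against control and -0.96 to -0.65 in CKD+Fe against CKD when 1 mouse was left out. In CKD+Fe against control it was -1.32 with medians (exact permutation p = 0.0571) and -1.14 without the 3 mice (p = 0.1, the smallest that 3 against 3 allows). The ferritin share differed by -0.566 to -0.448 percentage points in CKD against control and 0.218 to 0.434 in CKD+Fe against CKD when 1 mouse was left out, and by -0.548 in CKD against control without the 3 mice (exact permutation p = 0.1). The ratio of Fbxl5 to Ireb2 ranged from -0.084 to 0.13 in CKD against control, -0.085 to 0.11 in CKD+Fe against CKD and -0.053 to 0.15 in CKD+Fe against control, that of Ncoa4 to Fth1 from -0.50 to 0.42 and that of Pcbp1 to Pcbp2 from -0.087 to 0.074 in CKD+Fe against CKD. With medians these 3 ratios were -0.021, -0.29 and 0.044 in CKD+Fe against CKD, and without the 3 mice those of Ncoa4 to Fth1 and Pcbp1 to Pcbp2 were -0.25 and 0.056. No paired analysis was possible because the labels give the groups no shared replicate numbers.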
